A study of Mus musculus with 10 samples.

Results

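Complex I of the mitochondrial respiratory chain is described here through 35 nuclear genes that encode its subunits, taken from a fixed list of names among 22180 genes with a single-symbol probe group on the array. A gene is represented by its transcript cluster, a group of probes for 1 transcript region, and where several clusters carry the gene's symbol alone, by the one with the highest mean. Of the 35 genes, 32 had such a cluster. Ndufb2, Ndufb4 and Ndufs6 were covered only by clusters that also name another gene, and they are not analysed here. Of the 32, 31 passed the filter on low levels, and Ndufs5 lay below it at a mean of log2 3.81, so that its values are given without a test.

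RNA came from livers of male mice aged 4 weeks, 1 array per liver. Of the 10 livers, 3 were Rosa26-rtTA + SOD2 shRNA 1, 3 were Rosa26-rtTA + SOD2 shRNA 2, and 4 were Rosa26-rtTA alone. All 10 livers thus carried rtTA, a doxycycline-dependent transcription factor placed at the broadly active Rosa26 locus, and in 6 of them it drove an shRNA, an RNA hairpin that silences a gene, directed at Sod2, the mitochondrial superoxide dismutase. The mothers ate doxycycline chow (625 mg/kg) in pregnancy, and knockdown covered embryonic days 0 to 12.5, and the growth text is the same for the controls, which were littermates. The 6 shRNA livers are called adapted, the submitters' term. The labels place 3 controls in the shRNA 2 cohort and 1 in the shRNA 1 cohort without naming them, so cohort and hairpin cannot be told apart, and since they do not state that each liver is a separate animal, a p-value refers only to the spread among these samples. Precision is limited by how few arrays there are.

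Complex I takes electrons from NADH, passes them along flavin and iron-sulfur centres to ubiquinone, and pumps protons across the inner mitochondrial membrane. Its peripheral arm, in the matrix, holds the NADH-oxidising and the quinone-reducing modules, and its membrane arm holds the proton channels. The central membrane subunits are encoded by mitochondrial DNA, and the other subunits, core and accessory, are nuclear. The complex is also a known site of superoxide production, the substrate of the enzyme that the hairpins target. In liver, a tissue rich in mitochondria, it oxidises much of the NADH made from fatty acids and amino acids.

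Windows upstream of 4 subunits are shown as examples of the motif letters searched below, from genes that all had their lowest value in the same control liver. Ndufa9, Ndufb8 and Ndufs4 meet both conditions too, through YY1 letters, and are not shown. Each runs from 250 bases before to 50 bases after the annotated start (RefSeq, GRCm38.p6), is written 5′ to 3′ on the gene's strand, and has in capitals the letters of NRF1 (GCGCA, any base, GCGC), ETS (CCGGAAG) or YY1 (AAGATGGC) on either strand. Ndufa11 and Ndufa8 hold the NRF1 letters, Ndufs8 those of ETS and Ndufs7 those of YY1.
Ndufa11 (chr17:56717512-56717811, plus strand): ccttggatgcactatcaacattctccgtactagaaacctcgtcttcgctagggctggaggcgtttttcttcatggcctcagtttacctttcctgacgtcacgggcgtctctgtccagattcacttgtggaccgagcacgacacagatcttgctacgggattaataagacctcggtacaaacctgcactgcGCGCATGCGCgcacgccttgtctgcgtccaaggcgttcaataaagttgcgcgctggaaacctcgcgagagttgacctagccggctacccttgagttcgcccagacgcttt
Ndufa8 (chr2:36049289-36049588, minus strand): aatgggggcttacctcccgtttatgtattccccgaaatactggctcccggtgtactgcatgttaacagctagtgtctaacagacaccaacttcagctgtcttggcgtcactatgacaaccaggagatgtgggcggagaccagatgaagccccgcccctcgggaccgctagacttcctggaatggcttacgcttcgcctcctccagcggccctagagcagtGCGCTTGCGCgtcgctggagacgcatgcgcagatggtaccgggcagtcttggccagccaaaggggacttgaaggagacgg
Ndufs8 (chr19:3912725-3913024, minus strand): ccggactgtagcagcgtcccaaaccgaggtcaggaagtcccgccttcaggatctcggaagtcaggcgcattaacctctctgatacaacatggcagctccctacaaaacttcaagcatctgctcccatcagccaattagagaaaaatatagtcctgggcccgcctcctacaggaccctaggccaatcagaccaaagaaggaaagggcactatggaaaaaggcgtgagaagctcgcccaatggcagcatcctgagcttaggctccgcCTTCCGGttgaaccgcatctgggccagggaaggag
Ndufs7 (chr10:80249199-80249498, plus strand): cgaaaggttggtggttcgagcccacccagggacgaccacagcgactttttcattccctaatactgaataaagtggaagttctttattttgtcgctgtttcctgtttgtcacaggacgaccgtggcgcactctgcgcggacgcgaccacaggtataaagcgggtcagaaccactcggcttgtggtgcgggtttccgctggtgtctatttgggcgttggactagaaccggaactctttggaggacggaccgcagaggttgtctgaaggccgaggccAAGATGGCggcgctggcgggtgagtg

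The targeted gene was close to the control level at this age. Sod2 averaged log2 10.37 ± 0.09 (SD, n = 6) in adapted livers and 10.38 ± 0.08 (SD, n = 4) in rtTA controls, with an adjusted p of 0.980 in limma. Hepatocyte markers were high in all 10 livers: the mean log2 level of 9 measured markers ran between 12.29 and 12.41 in adapted livers and between 12.31 and 12.38 in controls. The corresponding ranges were 8.20 to 8.58 and 8.14 to 8.42 for 10 macrophage markers and 8.59 to 8.73 and 8.53 to 8.69 for 8 sinusoidal endothelial markers. For 8 stellate cell markers they were 7.78 to 8.07 and 7.76 to 7.88, and for 7 T and NK cell markers 3.82 to 4.11 and 3.80 to 3.85. For 5 cholangiocyte markers they were 4.00 to 4.23 and 4.11 to 4.30, for 4 B cell markers 5.02 to 5.18 and 4.93 to 5.24, and for 5 neutrophil markers 2.87 to 3.19 and 2.90 to 3.08. Only 1 of 6 listed erythroid genes was measured. In bulk tissue, fewer cells of a type and less RNA per cell cannot be told apart.

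Complex I subunit mRNAs differed little between adapted and control livers, and no subunit passed the test. In limma, 0 of the 31 tested subunits passed an adjusted p of 0.05, against 0.00751% of all 13308 genes tested (1 gene), and the smallest adjusted p among them was 0.601. With an unadjusted p under 0.05, 0 subunits were higher and 0 lower, against 4.86% and 3.51% of all genes. The median difference over the 32 measured subunits was +0.05 on the log2 scale, against +0.01 over all genes tested. Differences ran between -0.23 for Ndufb11 and +0.29 for Ndufa7. They were above 0 for 23 of 32 subunits, against 52.0% of all genes tested. Without rtTA replicate 4 the median was +0.03 and 18 of 32 were above 0.

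For 28 of 31 subunits the 95% interval of the adapted minus control difference lay wholly within -0.5 to 0.5, a fold change of 1.41 in either direction, as it did for 88.1% of all genes tested. The exceptions were Ndufa7 (-0.10 to 0.68), Ndufa11 (-0.05 to 0.61) and Ndufb11 (-0.53 to 0.08). These intervals still hold 0 and moderate changes, and a p above the threshold does not show equal levels. The subunits also varied little among livers of 1 group. Their median within-group SD was 0.115, against 0.161 over all genes tested, and 26 of 31 lay below the all-gene median. Most subunits were bright, with 30 of 31 at or above the 60th percentile of mean level. Spread was not compared with genes of like level. The spread was smallest for Ndufv2 (0.0413) and greatest for Ndufa7 (0.333) and Ndufa11 (0.272).

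**Figure D1:**
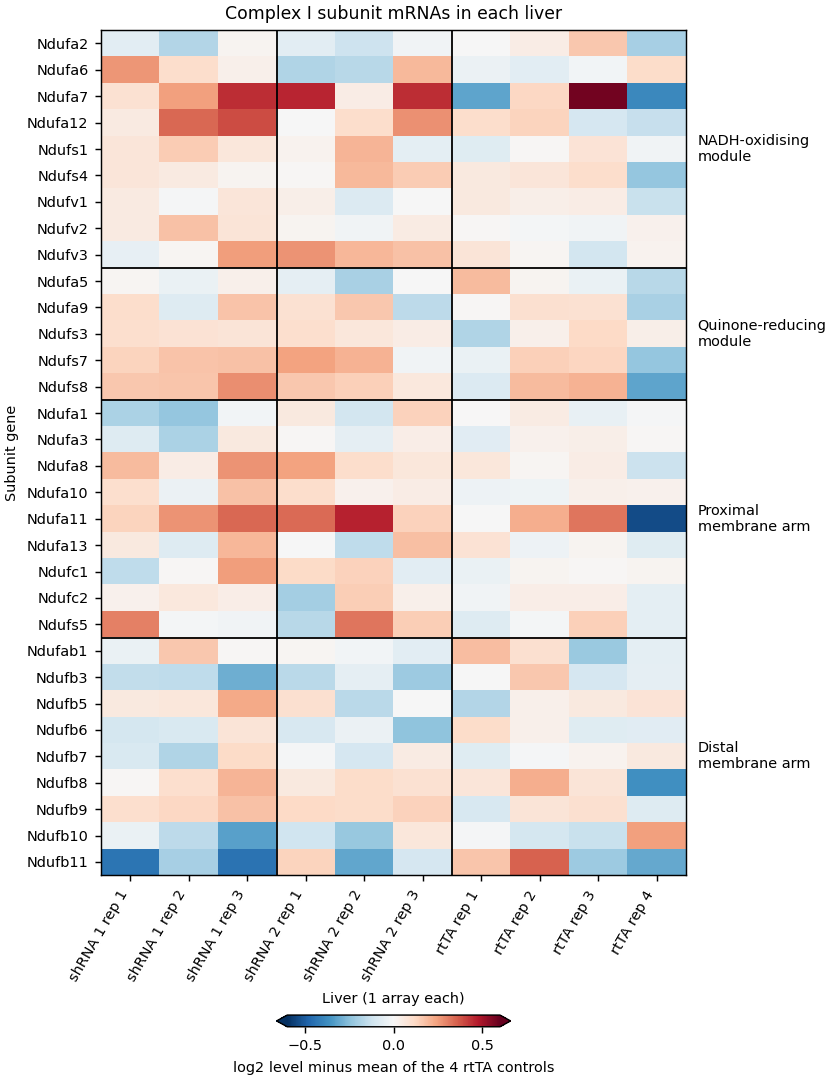
Colour gives the log2 level of each of 32 measured subunits in each liver minus the mean of the 4 rtTA controls, in columns for shRNA 1, shRNA 2 and rtTA and in rows grouped by module; the scale ends at -0.6 and 0.6. Most cells are pale, Ndufa7, Ndufa11 and Ndufb11 vary most, and rtTA replicate 4 holds the lowest value of 11 subunits.

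The NADH-oxidising module begins the electron path. Ndufv1, which binds NADH and the flavin, was at log2 9.35, 9.28 and 9.37 with shRNA 1, 9.33, 9.21 and 9.29 with shRNA 2, and 9.35, 9.33, 9.34 and 9.16 in rtTA controls. The groups overlapped, and the adapted minus control difference was +0.01 with a standard error of 0.07 (limma adjusted p = 0.980). Its sign turned without rtTA replicate 4, at -0.033. Ndufv2, an iron-sulfur subunit beside it, was at 9.13, 9.25 and 9.15 with shRNA 1, 9.09, 9.05 and 9.12 with shRNA 2, and 9.08, 9.06, 9.05 and 9.10 in controls. All shRNA 1 livers were above all controls and above all shRNA 2 livers, by small amounts: shRNA 1 minus control was +0.10 (adjusted p = 0.816) and shRNA 1 minus shRNA 2 +0.08 (adjusted p = 0.954). Ndufs1, which carries several iron-sulfur clusters, was at 8.87, 8.95 and 8.86 with shRNA 1, 8.82, 8.997 and 8.74 with shRNA 2, and 8.72, 8.80, 8.88 and 8.78 in controls. The values overlapped, with adapted minus control at +0.08 (adjusted p = 0.838) and at +0.04 without shRNA 2 replicate 2.

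Among the accessory subunits of this module, Ndufa7 had the largest within-group spread of the set. It was at log2 6.87, 7.02 and 7.22 with shRNA 1, 7.23, 6.82 and 7.22 with shRNA 2, and 6.46, 6.90, 7.36 and 6.39 in controls. The controls alone spanned the whole range, with 2 of them below every adapted liver and 1 above, and the difference of +0.29 had a standard error of 0.18 (adjusted p = 0.708). Ndufa12, which lies at the interface of the peripheral arm modules, was at 7.91, 8.20 and 8.25 with shRNA 1, 7.85, 7.96 and 8.13 with shRNA 2, and 7.96, 7.99, 7.75 and 7.71 in controls. Both shRNA groups overlapped the controls. Its shRNA 1 minus control difference of +0.26 (standard error 0.12, adjusted p = 0.614) was the strongest by moderated statistic for that hairpin and 1 of 31 subunits higher at an unadjusted p under 0.05, against 4.57% of all genes. A dimmer second cluster of Ndufa12 averaged 5.80 with shRNA 1, 5.51 with shRNA 2 and 5.71 in controls. Its adapted minus control difference was -0.05, against +0.19 in the cluster used.

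Ndufv3, an accessory subunit with tissue-dependent splice forms, was at log2 6.88, 6.94 and 7.18 with shRNA 1, 7.20, 7.13 and 7.11 with shRNA 2, and 7.01, 6.94, 6.82 and 6.95 in controls. Every shRNA 2 liver was above every control, while shRNA 1 livers overlapped both. The shRNA 2 minus control difference was +0.21 (standard error 0.10, adjusted p = 0.649), and Ndufv3 was the only subunit of 31 higher at an unadjusted p under 0.05 there, against 4.14% of all genes. Ndufa6, a partner of the mitochondrial acyl carrier protein, was at 10.06, 9.90 and 9.83 with shRNA 1, 9.62, 9.63 and 9.99 with shRNA 2, and 9.76, 9.74, 9.78 and 9.91 in controls. The hairpin groups differed by +0.19, shRNA 1 minus shRNA 2, with a 95% interval of -0.07 to 0.44 (adjusted p = 0.909), and they overlapped. It was +0.12 without shRNA 1 replicate 1 or without shRNA 2 replicate 1, and +0.31 without shRNA 2 replicate 3. Ndufs4, an accessory subunit whose loss in mice and humans causes a mitochondrial encephalopathy, lay between 8.15 and 8.34 in adapted livers and between 7.91 and 8.25 in controls (+0.08, adjusted p = 0.842). Ndufa2 lay between 8.18 and 8.37 in adapted livers and between 8.16 and 8.52 in controls (-0.07, adjusted p = 0.864). Over the 9 measured genes of the module the median difference was +0.08, with 8 above 0, against 52.0% of all genes tested.

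The quinone-reducing module passes electrons to ubiquinone. Ndufs7, which holds the last iron-sulfur cluster before the quinone, was at log2 9.90, 9.93 and 9.94 with shRNA 1, 10.002, 9.97 and 9.74 with shRNA 2, and 9.72, 9.91, 9.89 and 9.53 in controls. Ndufs8, an iron-sulfur subunit next to it, was at 9.21, 9.21 and 9.32 with shRNA 1, 9.21, 9.19 and 9.11 with shRNA 2, and 8.96, 9.23, 9.25 and 8.73 in controls. In both genes rtTA replicate 4 was lowest and rtTA replicates 2 and 3 lay among the adapted livers. Adapted minus control was +0.15 for Ndufs7 (adjusted p = 0.711) and +0.16 for Ndufs8 (adjusted p = 0.730), and without rtTA replicate 4 these were +0.07 and +0.06. Every shRNA 1 liver was above every shRNA 2 liver for Ndufs8, with a difference of +0.08 (adjusted p = 0.981).

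Ndufs3, a core subunit without a redox centre, was at log2 6.52, 6.50 and 6.49 with shRNA 1, 6.52, 6.49 and 6.46 with shRNA 2, and 6.23, 6.45, 6.53 and 6.45 in controls. The 6 adapted livers lay within 1 narrow band inside the range of the controls (+0.08, adjusted p = 0.830), and without rtTA replicate 1 the difference was +0.02. Ndufa5 lay between 6.11 and 6.34 in adapted livers and between 6.14 and 6.50 in controls (-0.04, adjusted p = 0.932). Ndufa9, near the quinone site, lay between 9.29 and 9.62 in adapted livers and between 9.25 and 9.54 in controls (+0.05, adjusted p = 0.928). The 5 genes of the module had a median difference of +0.08, with 4 above 0. Over the 6 core subunits of both peripheral modules the median was +0.08, with all 6 above 0 and limma adjusted p-values of 0.711 to 0.980. Of all genes tested 52.0% were above 0. Without rtTA replicate 4 Ndufv1 was below 0, at -0.033. Relative to the control mean, the mean of the core subunits was -0.05, +0.07, +0.09 and -0.11 in rtTA replicates 1 to 4.

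**Figure D2:**
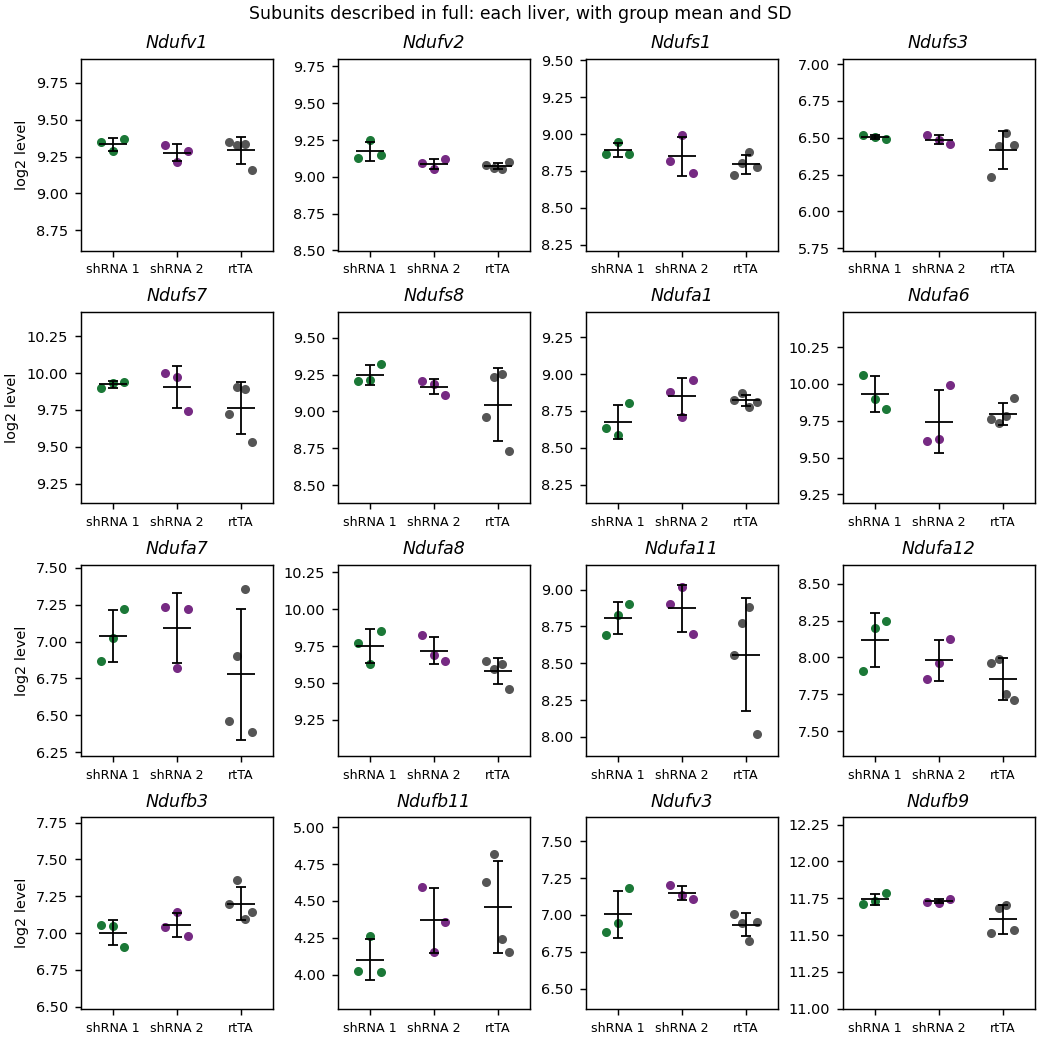
Points are log2 levels in single livers of shRNA 1 (3), shRNA 2 (3) and rtTA (4) for 16 subunits, with group mean and SD as bars; every panel spans the same log2 height around its own gene. The groups overlap in most panels, and in Ndufb9 all 6 adapted livers, from 11.71 to 11.79, lie just above the highest control at 11.70.

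The proximal membrane arm holds small accessory subunits around the mitochondrially encoded core. Ndufa11, a membrane protein near the contact with complex III in supercomplexes, was at log2 8.69, 8.83 and 8.90 with shRNA 1, 8.90, 9.02 and 8.70 with shRNA 2, and 8.56, 8.78, 8.88 and 8.02 in controls. One control was far lower than any other liver. Adapted minus control was +0.28 (standard error 0.15, adjusted p = 0.645) and +0.10 without rtTA replicate 4. In the dimmer second cluster of the gene the difference was +0.02. Ndufa8, a subunit of the intermembrane space side, was at 9.77, 9.63 and 9.85 with shRNA 1, 9.82, 9.69 and 9.65 with shRNA 2, and 9.65, 9.60, 9.63 and 9.46 in controls. Adapted livers were above the highest control in 4 of 6 cases, with a difference of +0.15 (standard error 0.08, adjusted p = 0.637). It was +0.11 without rtTA replicate 4. In the second cluster of Ndufa8 the difference was +0.20. That cluster averaged 6.93 with shRNA 1, 6.54 with shRNA 2 and 6.53 in controls, so only shRNA 1 stood apart. Ndufa1, encoded on the X chromosome, was at 8.63, 8.59 and 8.80 with shRNA 1, 8.88, 8.71 and 8.96 with shRNA 2, and 8.82, 8.87, 8.78 and 8.81 in controls. It headed the comparison of the hairpins, at -0.17 for shRNA 1 minus shRNA 2 (95% interval -0.39 to 0.04, adjusted p = 0.895), with overlapping groups.

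The other subunits of this arm differed by at most 0.10 between adapted and control means. Ndufa3 stood at -0.04, Ndufa10 at +0.07, Ndufa13, known also as a cell death regulator, at +0.03, Ndufc1 at +0.05 and Ndufc2 at +0.02, with adjusted p-values of 0.842 to 0.975. The untested Ndufs5 lay between 3.58 and 4.07 in adapted livers and between 3.67 and 3.90 in controls, a difference of +0.10. Over the 9 genes the median was +0.05, with 7 above 0, against 52.0% of all genes tested.

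The distal membrane arm was the part of the complex with a median below 0, at -0.04 over 9 measured genes. Of them 4 were above 0, against 52.0% of all genes tested. Ndufb3, a small membrane subunit, was at log2 7.05, 7.05 and 6.91 with shRNA 1, 7.04, 7.14 and 6.98 with shRNA 2, and 7.20, 7.36, 7.10 and 7.14 in controls. It lay below every control in 5 of 6 adapted livers, and the difference of -0.17 (standard error 0.08, 95% interval -0.35 to 0.0024, adjusted p = 0.601) was the strongest by moderated statistic in the set. Ndufb11, also X-linked, was at 4.02, 4.26 and 4.02 with shRNA 1, 4.59, 4.15 and 4.36 with shRNA 2, and 4.63, 4.82, 4.24 and 4.16 in controls. The shRNA 1 minus control difference was -0.36 (standard error 0.16, adjusted p = 0.630), the groups overlapped, and it was 1 of 31 subunits lower at an unadjusted p under 0.05, against 3.32% of all genes. Its shRNA 1 minus shRNA 2 difference was -0.27 (95% interval -0.65 to 0.12, adjusted p = 0.909), and it was -0.15 without shRNA 2 replicate 1. Ndufb11 was the dimmest tested subunit, not far above the level filter of log2 3.98.

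Ndufb9, named after its values were seen, was the only subunit whose adapted livers did not overlap the controls. It was at log2 11.71, 11.73 and 11.79 with shRNA 1, 11.72, 11.72 and 11.74 with shRNA 2, and 11.51, 11.68, 11.70 and 11.53 in controls. The gap to the nearest control was small, and adapted minus control was +0.13 (standard error 0.07, adjusted p = 0.666). Every adapted liver was above every control in 1 of 31 subunits and below in 0, against 1.04% and 0.842% of all genes tested. Of the remaining distal subunits, Ndufb10 stood at -0.13, Ndufb6 at -0.08, Ndufb7 at -0.04, Ndufb5 at +0.05 and Ndufb8 at +0.10, with adjusted p-values of 0.770 to 0.942. Ndufab1, the mitochondrial acyl carrier protein that also serves lipoic acid synthesis, stood at +0.01 (adjusted p = 0.987). For Ndufb8 the lowest of 10 livers was rtTA replicate 4, at 5.79 against 6.17 to 6.36 in adapted livers and 6.23 to 6.38 in the other controls.

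Each hairpin was also set against the same 4 controls, so that the 2 comparisons share them. In shRNA 1 livers 0 of 31 subunits passed in limma (0.0% of all genes), 1 was higher and 1 lower at an unadjusted p under 0.05 (4.57% and 3.32% of all genes), and the median difference was +0.07, against +0.01 over all genes tested. Without rtTA replicate 4 that median was +0.04. Differences were above 0 for 23 of 31 subunits (52.4% of all genes), and 27 of 31 intervals lay within -0.5 to 0.5 (78.9% of all genes). No overlap with controls was seen for Ndufb9 and Ndufv2, both higher, and for Ndufb3, lower. These counts of 2 and 1 stand against 5.07% and 3.82% of all genes. In shRNA 2 livers 0 of 31 passed (0.00751% of all genes), 1 was higher and 0 lower at an unadjusted p under 0.05 (4.14% and 3.46% of all genes), and the median was +0.03, against 0.0039 over all genes. It was +0.01 without rtTA replicate 4. Differences were above 0 for 18 of 31 subunits (51.2% of all genes), and 29 of 31 intervals lay within -0.5 to 0.5 (78.8% of all genes). Ndufb9 and Ndufv3 lay above all controls and 0 subunits below, against 3.88% and 3.41% of all genes.

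The direct test of shRNA 1 against shRNA 2 called 0 of 31 subunits, against 0.015% of all genes, and the smallest adjusted p was 0.895. With an unadjusted p under 0.05, 0 were higher and 0 lower, against 3.32% and 2.7% of all genes. Ndufs8 and Ndufv2 were higher in all shRNA 1 livers than in all shRNA 2 livers and 0 subunits were lower, against 5.94% and 5.36% of all genes. Differences were above 0 for 19 of 31 (51.1% of all genes). The median difference of the 32 measured subunits was +0.02, and without shRNA 1 replicate 3 it was -0.0074. For 29 of 31 subunits the 95% interval lay within -0.5 to 0.5, as for 75.4% of all genes tested; the exceptions were Ndufa7 and Ndufb11.

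**Figure D3:**
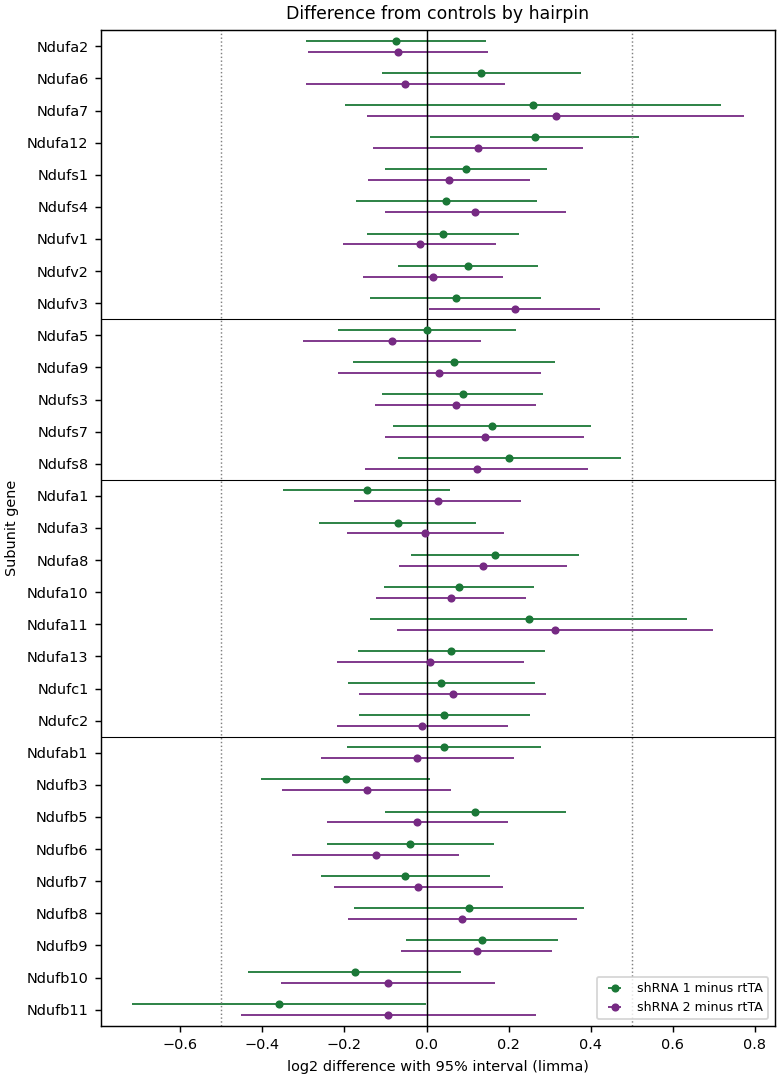
Points are log2 differences of shRNA 1 and of shRNA 2 livers from the same 4 rtTA controls for the 31 tested subunits, with 95% intervals from limma as lines; dotted lines mark -0.5 and 0.5. The intervals that leave out 0 are those of Ndufa12 and Ndufb11 with shRNA 1 and of Ndufv3 with shRNA 2, and the widest are those of Ndufa7, Ndufa11 and Ndufb11.

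Part of the pattern lay in single livers. Relative to the control mean, the median of the 32 subunits was +0.05, +0.03 and +0.08 in the shRNA 1 livers, +0.03, +0.03 and +0.05 in the shRNA 2 livers, and -0.0035, +0.03, +0.04 and -0.06 in the controls. The lowest liver was rtTA replicate 4, where all genes tested had a median of -0.02. That liver held the lowest of the 10 values for 11 of 32 subunits (34.4%), against 16.4% of all genes tested. Those 11 were Ndufa2, Ndufa7, Ndufa8, Ndufa9, Ndufa11, Ndufa12, Ndufb8, Ndufs4, Ndufs7, Ndufs8 and Ndufv1. At the other end shRNA 1 replicate 3 held the highest value for 12 of 32, against 10.1% of all genes tested. Outside complex I, Sdhb (log2 8.71) and Sdhd of complex II and Uqcrc2 and Cyc1 (8.12) of complex III were also lowest in rtTA replicate 4. So were Cox7a2 of complex IV and Atp5b, Atp5h and Atp5l of the ATP synthase. Most of the 8, 10 and 15 measured genes of complex III, complex IV and the ATP synthase were lowest in other livers. The same held for Sdha and Sdhc of complex II.

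**Figure D4:**
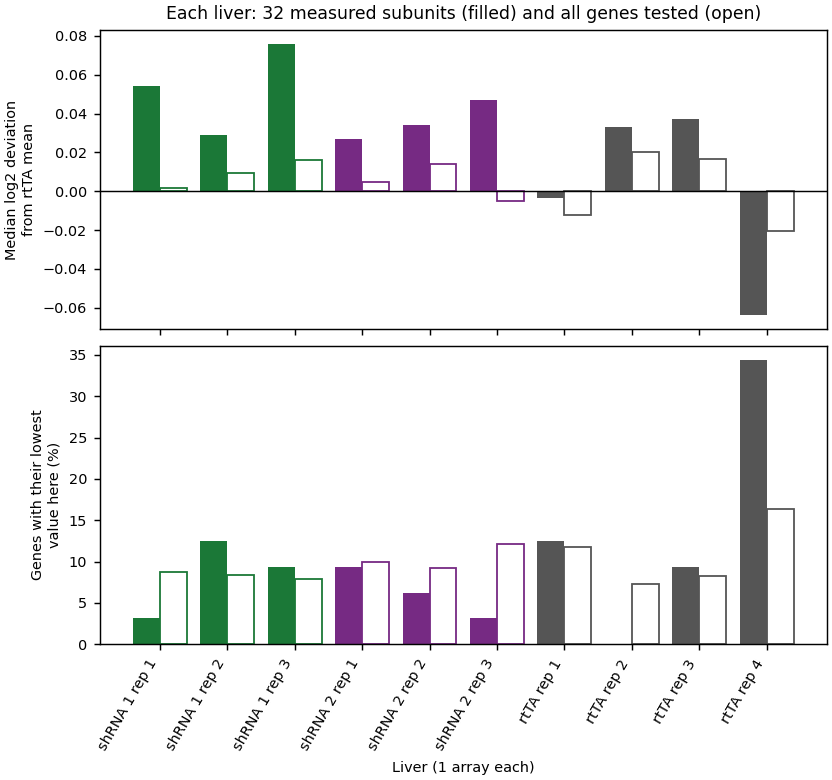
The upper panel gives, for each liver, the median log2 deviation from the rtTA mean over 32 measured subunits (filled) and over all 13308 genes tested (open); the lower panel gives the percent of genes whose lowest value fell in that liver. In rtTA replicate 4 the subunit median is -0.06 and 34.4% of the subunits have their lowest value.

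Genes that build or surround the complex gave similarly small values. Of 17 measured assembly factors 0 passed in limma in adapted against control (0.00751% of all genes), 14 were above 0 (52.0% of all genes) and the median was +0.05. Ndufaf7, a methyltransferase that modifies a core subunit during assembly, was at log2 7.28, 7.37 and 7.15 with shRNA 1, 7.51, 7.29 and 7.07 with shRNA 2, and 6.98, 7.16, 6.93 and 6.71 in controls. Its difference of +0.33 (95% interval 0.10 to 0.57, adjusted p = 0.439) exceeded that of any subunit in this comparison, and it was the only assembly factor of 17 at an unadjusted p under 0.05, against 4.86% of all genes higher and 3.51% lower. Acad9, an assembly factor that is also an acyl-CoA dehydrogenase, was at +0.21 (adjusted p = 0.652; +0.14 without rtTA replicate 4) and Ndufaf8 at +0.19 (adjusted p = 0.619).

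The other respiratory complexes were read from lists of the same kind, with 0 genes past the threshold in each. Complex II had a median difference of +0.12 over 4 genes, complex III +0.02 over 8, complex IV +0.04 over 10 and the ATP synthase +0.04 over 15. For the ATP synthase the mean was -0.0004, opposite in sign to its median. Their strongest members were Sdhb (+0.17, adjusted p = 0.656), Cyc1 (+0.25, adjusted p = 0.569), Cox7b (+0.25, adjusted p = 0.728) and Atp5g1. Without rtTA replicate 4 Sdhb stood at +0.07 and Cyc1 at +0.14, and without shRNA 2 replicate 3 Cox7b stood at +0.11. Atp5g1, 1 of the genes for the membrane ring subunit of the ATP synthase, was at log2 5.33, 5.41 and 5.44 with shRNA 1, 5.25, 5.19 and 5.40 with shRNA 2, and 5.83, 5.58, 5.94 and 5.61 in controls. It lay below every control in all 6 adapted livers (-0.40, adjusted p = 0.264). It was the only 1 of 14 tested genes of its list to do so, against 0.842% of all genes. Atp5g2 and Atp5g3, much brighter genes for the same subunit, averaged 10.91 and 8.82 in adapted livers and 10.85 and 8.82 in controls. In the same list Atp5b, the catalytic subunit, lay above every control in all 6 adapted livers (+0.11, adjusted p = 0.689), against 1.04% of all genes, and is named after its values were seen. Of 8 regulators of mitochondrial biogenesis, 0 passed. At an unadjusted p under 0.05, 1 was higher and 1 lower in adapted livers, against 4.86% and 3.51% of all genes, and both are named after their values were seen: Ppargc1a, the coactivator PGC-1 alpha, at +0.59 and Nrf1, whose protein binds many promoters of respiratory genes, at -0.19, with adjusted p-values of 0.264 and 0.574. Ppargc1a stood at +0.84 with shRNA 1 and +0.34 with shRNA 2. Its shRNA 2 livers were at log2 6.72, 6.77 and 7.28, against 6.38 to 6.77 in controls.

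Promoter windows of the subunits were searched for letters that the list of names did not use, and each motif was missing from most of them. Of the 35 genes, 32 had RefSeq windows (34 in all); Ndufa2, Ndufb9 and Ndufs1 did not. The NRF1 letters stood in 7 of the 32 genes (21.9%), against 10.4% of 10420 genes tested on the arrays with a window and 5.19% of all 27025 genes of the table. The YY1 letters also stood in 7 of 32 (21.9%), against 4.76% and 3.19%. Those of ETS stood in 4 of 32 (12.5%), against 17.97% and 9.93%, and the TATA box letters (TATAAA) in 4 of 32 (12.5%), against 9.71% and 15.7%. Median GC content was 59.2% in the subunit windows, against 60% in windows of genes tested and 52.7% in all windows.

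By gene, the NRF1 letters were in Ndufa5, Ndufa6, Ndufa8, Ndufa11, Ndufb4, Ndufs5 and Ndufs6, and the YY1 letters in Ndufa3, Ndufa9, Ndufb8, Ndufc1, Ndufs4, Ndufs6 and Ndufs7. Ndufs6 was thus the only gene with both. The 4 measured genes above the level filter with NRF1 letters had adapted minus control differences of -0.04 (Ndufa5), +0.04 (Ndufa6), +0.15 (Ndufa8) and +0.28 (Ndufa11). The 2 windows of Ndufa5 overlap, and the letters in them are counted once per gene. A match is a description of these letters, not of binding.

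**Figure D5:**
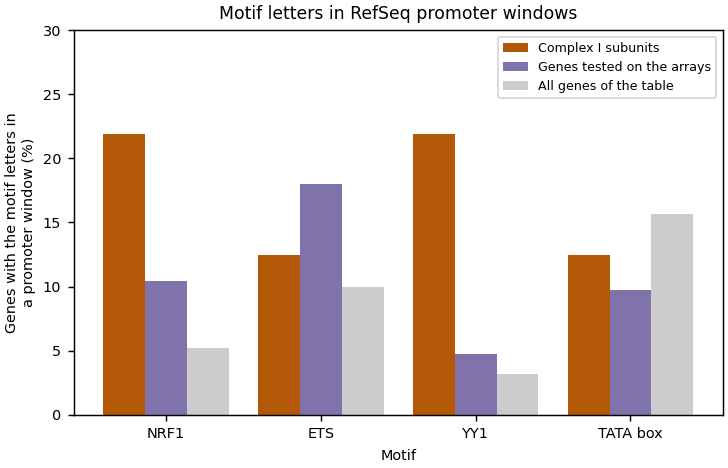
Bars give the percent of genes with the letters of each motif, on either strand, in a RefSeq promoter window, for 32 complex I subunits, 10420 genes tested on the arrays and all 27025 genes of the table. The subunits stand at 21.9% for both NRF1 and YY1, above both other sets.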

How the data were processed

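RNA of 10 livers was measured on a whole-transcript Affymetrix mouse array. The deposited values are log2 expression per transcript cluster, made with Affymetrix Expression Console per the submitters' processing notes, with version, background correction, normalization and the build used not given in the sources used here. No further scaling was applied to them. Of 41345 clusters, 23521 had 1 gene symbol, 1814 several and 16010 none in the platform annotation, and 23328 matched the GRCm38.p6 gene table by Entrez identifier, with 0 symbols changed. Each of 22180 genes was represented by its brightest single-symbol cluster, and 13308 genes at or above the 40th percentile of mean level were tested.

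One limma fit over all 10 arrays with 3 group means gave the 4 comparisons (limma 3.58.1, R 4.3.3, Python 3.11.15), with two-sided p-values adjusted by Benjamini-Hochberg over 13308 genes and a threshold of 0.05. The adapted mean weights both hairpins equally. Members and lists were chosen with earlier results of these data known. Named in full were the 6 core subunits and the 4 members with the largest absolute moderated statistic per comparison; Sod2, 3 assembly factors and 1 gene of each other complex followed the same statistic or a fixed choice. Medians of lists have no test. The fit was tested on simulated data. Alternatives covered normalization, level filter, cluster choice, replicate block, array weights, prior, arrays fitted, threshold and leaving out each array.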

Additional observations from a re-analysis of the deposited data

Results flagged for a closer look

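In 3 of 33 genes tested for a stray value among the 4 controls (32 subunits and Sod2), 1 control lay further from the rest than Dixon's 95% limit allows; chance alone flags about 1 in 20 groups. Ndufs4 was at log2 7.91 in rtTA replicate 4, against 8.20 to 8.25 in the other controls. Ndufv1 was at 9.16 in the same liver, against 9.33 to 9.35. Ndufc1 was at 6.44 in rtTA replicate 1, against 6.49 in the other 3 and 6.33 to 6.73 in adapted livers.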

How the results depend on the processing

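With 0 subunits past the threshold in each of the 4 comparisons, the count stayed at 0 under every alternative run, including an adjusted p of 0.1, and the smallest adjusted p of a subunit under any of them was 0.421. The number of all genes past the threshold moved between 0 and 6 (adapted, 1 in the report), 0 and 30 (shRNA 1, 0), 0 and 3 (shRNA 2, 1) and 1 and 7 (shRNA 1 against shRNA 2, 2). Leaving out each array in turn, the subunit median lay between 0.0325 and 0.0614 for adapted against control, 0.0385 and 0.0865 for shRNA 1, 0.0108 and 0.0469 for shRNA 2, and -0.0074 and 0.0289 for shRNA 1 against shRNA 2. Median centring moved the subunit median to 0.0652 for shRNA 2 (spread between arrays 0.0335), with 25 of 32 subunits above 0 against 19, and to 0.0806 for adapted; the median of all genes moved alike, to 0.0397 and 0.037 from 0.0039 and 0.0058. The signs of 2 near-zero differences turned: Ndufv1 was at -0.033 with the replicate block and between -0.033 (without rtTA replicate 4) and 0.0308 when single arrays were left out, and Sod2 at 0.0187 with median centring, the same shift as that of all genes, and between -0.0423 and 0.0242 when single arrays were left out, above 0 without rtTA replicate 2, shRNA 1 replicate 3 or shRNA 2 replicate 3. Same-numbered livers had deviations correlating between -0.25 and 0.27, which cannot decide whether livers of 1 number share a condition. Ciart, a circadian clock gene named after its values were seen, was at log2 6.10, 5.91 and 6.02 in replicate 1 of shRNA 1, shRNA 2 and rtTA. In the other livers it lay between 4.48 and 5.48. Cry1, another clock gene, did not set these livers apart (5.39, 5.07 and 5.38, against 4.90 to 5.95). Nor did any other measured clock gene of the list. Dbp was at 8.29, 8.84 and 8.71 in these livers, but at 9.09 in shRNA 2 replicate 3. That liver also had the highest Per3 (6.98) and the lowest Arntl (5.44). A shared condition was not tested. The replicate block gave 0 subunits and medians of 0.0325, 0.0385, 0.0108 and 0.0177 in the 4 comparisons. The block leaves rtTA replicate 4 without a partner, and these medians equal those without it.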
